A study of Mus musculus with 8 samples.

Results

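The 10 genes described here encode members of the Kruppel-like factor (KLF) family, namely Klf2, Klf3, Klf4, Klf5, Klf6, Klf7, Klf9, Klf10, Klf13 and Klf16. They were chosen by name, with Klf4 included because it is also a factor of the reprogramming cassette, and they are 10 of the 21853 protein-coding genes measured. Their gene bodies were taken as the longest protein-coding transcript of each gene in GENCODE release M21 on mm10. The mark measured was H3K36me3, the trimethylation of lysine 36 on histone H3, by chromatin immunoprecipitation and sequencing.

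The cells were mouse embryonic fibroblasts (MEFs) from 1 embryo at day 13.5, of the i4F-B strain on a C57BL/6J background, and every library came from this embryo. All of them carry the i4F cassette, from which doxycycline switches on OCT4, SOX2, KLF4 and MYC together (OSKM) in whichever cells respond to it. The 4 conditions were MEF (no doxycycline), MEF B12 (no doxycycline, with 2 µM vitamin B12 added to the medium), OSKM (doxycycline, given as 1 µg/mL in the labels) and OSKM B12 (doxycycline with the added vitamin), all after 72 h in the medium used for induced pluripotent stem cells. The design gave every condition a single pair of libraries, 1 for H3K36me3 and 1 for input, so there was no replicate, no test across samples and no p-value, and each condition cannot be told apart from its own library. The labels and the study's methods write the antibody's target as H3K3me3, while the titles and the study name the mark H3K36me3.

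The H3K36me3 libraries held between 29046913 and 33399267 tags after filtering. The OSKM list stood apart, with 92.8 Mb in peaks against 153.7 to 165.9 Mb in the other libraries and 96.7% of its peaks below a −log10 q of 5 against 80.9% to 85.0%. Every OSKM value below is a value of that list. Of the 12 fibroblast genes looked up, 11 were covered by peaks over at least 10% of the body in all 4 libraries, and Twist1, a defining gene of the mesenchyme, had no peak. Of the 6 pluripotency genes, 5 had no peak in any library, Nanog and Esrrb among them, and the 6 epithelial genes had none. Marked genes of other cell types were 1 of 5 endothelial (Tek), 2 of 4 blood (Cd68, and Csf1r, which overlaps another coding gene) and 1 of 4 neural (Tubb3, likewise overlapping). Tek was covered at 26.6% in OSKM B12 against 2.84% to 7.85% elsewhere. The part of such cells in the members' values was not tested.

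KLF proteins bind GC-rich and CACCC-type promoter elements through zinc fingers at the end of the protein and recruit partners through the rest of it. KLF2, KLF4, KLF5, KLF6 and KLF7 are mostly known as activators that can bind acetyltransferases. KLF3 recruits the corepressor CtBP, and KLF9, KLF10, KLF13 and KLF16 recruit the SIN3A corepressor. Mouse pluripotent cells use KLF2, KLF4 and KLF5 in their transcription network. H3K36me3 is laid down by SETD2, a methyltransferase that travels with elongating RNA polymerase II, and is therefore found over transcribed gene bodies, mostly toward their 3′ end. Vitamin B12 is a cofactor of methionine synthase, which feeds the pool of methyl donor.

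In every library but OSKM, peaks covered most of the zinc-finger coding bases of the Klf genes, and no library had a peak at their start sites. Most of the covered bases lay in introns, at 66.5% (MEF), 66.7% (MEF B12), 62.9% (OSKM) and 69.3% (OSKM B12) of those of all members together. Coding bases made up 9.02%, 8.31%, 11.8% and 8.46% in the same order. No peak reached exon 1, or the window from 250 bases before to 50 bases after the start site, of any of the 10 genes in any library. Among all marked genes, defined as the 9885 protein-coding genes with at least 10% of the body inside peaks in at least 1 library, 5.83% had a peak over exon 1 and 5.11% over the start-site window in any library, so the absence is also the common state of marked genes. The last exon was touched in 10 of 10 members in MEF, MEF B12 and OSKM B12 and in 8 of 10 in OSKM, beside 89.9%, 91.4%, 91.9% and 77.8% of the marked genes. The mean covered share of the last exon was 73.9% (MEF), 74.8% (MEF B12), 35.5% (OSKM) and 66.4% (OSKM B12).

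A search of the coding sequences for the pattern of a C2H2 finger (2 cysteines 2 to 4 residues apart, 12 residues, then 2 histidines 3 to 4 residues apart) found 3 fingers in 9 members and 2 in the Klf10 transcript used. The coding bases of the last finger are shown for 6 members, because the peaks described below end on, cover or miss these bases. Each is given 5′ to 3′ on the coding strand from GRCm38.p6 (mm10), with the codons of the 4 zinc-binding residues in capitals, at chr8:72320851-72320913 (plus strand) for Klf2, chr4:55528131-55528193 (minus) for Klf4, chr14:99313258-99313320 (plus) for Klf5, chr19:23164790-23164852 (plus) for Klf9, chr7:63891628-63891690 (minus) for Klf13 and chr10:80569053-80569115 (minus) for Klf16.
Klf2: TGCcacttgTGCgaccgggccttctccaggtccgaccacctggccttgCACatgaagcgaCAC
Klf4: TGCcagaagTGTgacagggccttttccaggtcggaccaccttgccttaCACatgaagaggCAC
Klf5: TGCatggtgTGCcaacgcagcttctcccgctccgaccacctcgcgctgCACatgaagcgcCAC
Klf9: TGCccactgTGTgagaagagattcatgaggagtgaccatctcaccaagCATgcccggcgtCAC
Klf13: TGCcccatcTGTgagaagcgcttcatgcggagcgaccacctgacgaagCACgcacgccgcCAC
Klf16: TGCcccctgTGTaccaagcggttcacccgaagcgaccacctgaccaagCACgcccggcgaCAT

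The activators Klf2 and Klf4 were the closest pair among these finger sequences, with 52 of 63 bases identical (82.5%). Among SIN3A-binding members, Klf9 and Klf13 shared 49 of 63 (77.8%), and so did Klf13 and Klf16. Over the 21 pairs of 63-base fingers, which include the Klf3 finger not shown here, the identity ran from 50.8% to 82.5%. The longest identical run was 14 bases, in Klf13 and Klf16. The sequenced tags were 75 bases long, and the authors kept only uniquely placed tags. Only these finger bases were compared, and the placing of tags among the Klf genes was not tested.

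The finger-coding bases were covered in full for 25 of the 29 fingers (MEF), 23 (MEF B12), 13 (OSKM) and 24 (OSKM B12). Over the whole body, the mean covered share of all marked genes was 47.3%, 50.1%, 32.1% and 50.6% in the same order. No such share was computed for finger bases of other genes, so these counts are not shown to be particular to the Klf fingers. In MEF the mark covered every finger of Klf2, Klf3, Klf4, Klf5, Klf6, Klf7 and Klf10, where for Klf10 only the 2 fingers of the transcript used are counted. In OSKM it covered every finger only of Klf3, Klf7 and Klf10, and no finger base of Klf4 or Klf5. In OSKM B12 all fingers were covered again in Klf2, Klf3, Klf4, Klf6, Klf7 and Klf10. The exception in every library was finger 1 of Klf9, Klf13 and Klf16, at 0% throughout. These 3 genes have only 2 exons, and this finger is encoded in exon 1, on the unmarked side of a long intron.

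**Figure D1:**
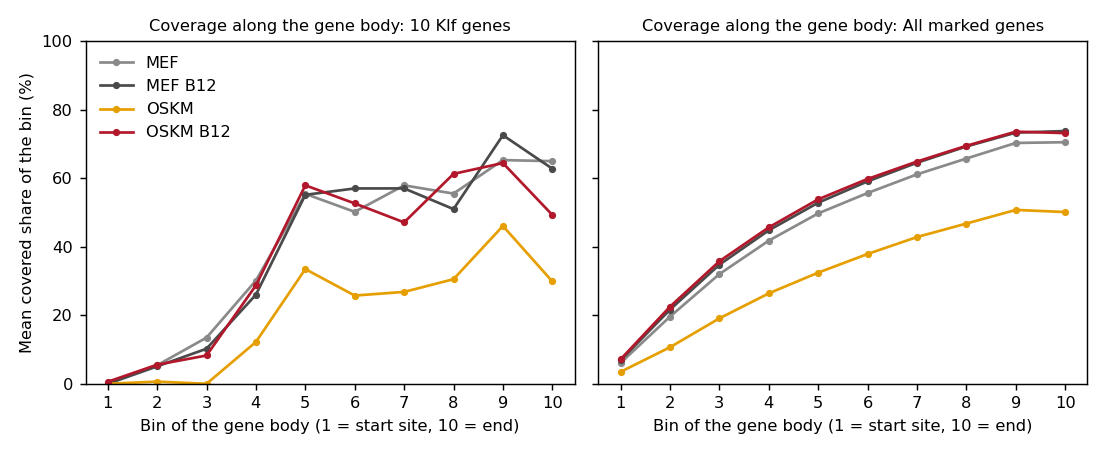
Mean share of each of 10 equal bins of the gene body inside H3K36me3 peaks (%, vertical axis) from the start site (bin 1) to the end (bin 10), for the 10 Klf genes and for the 9885 marked genes, with a line for each of the 4 libraries. The Klf genes are at or near 0 in bin 1 and at 47.1% or more from bin 5 on in every library except OSKM, whose highest bin is 46.1%.

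Along the gene body, the mean coverage of the Klf genes in MEF was 0% in bin 1 of 10, 30.2% in bin 4, 55.5% in bin 5 and 65.0% in bin 10. The same bins of all marked genes were covered at 6.12%, 41.8%, 49.8% and 70.6%. Both rose toward the 3′ end, as H3K36me3 usually does. In OSKM the members reached 33.5% in bin 5 and 29.9% in bin 10.

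The density of a gene is the mean peak pileup over all bases of its body, with bases outside peaks at 0, in fragments per base per 1000000 tags. It is a level per length of the whole body, so bases without peaks, such as those of long introns, lower it. Klf10, the TGF-β-inducible member, had the highest density in every library, at 0.512 (MEF), 0.637 (MEF B12), 0.307 (OSKM) and 0.646 (OSKM B12). Klf3, the CtBP-binding repressor, was at 0.476, 0.506, 0.293 and 0.618 in the same order. The 95% counting intervals of Klf10 and Klf3 overlapped in MEF (0.470 to 0.558 and 0.453 to 0.5004), OSKM (0.274 to 0.342 and 0.275 to 0.312) and OSKM B12, where the Klf10 interval began at 0.596 and that of Klf3 ended at 0.647. They were apart only in MEF B12. These intervals cover counting error only.

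Below these genes in MEF came Klf6, a broadly expressed member known from tissue injury, at 0.417, and Klf2 at 0.324. Klf5, an activator of proliferating epithelia, and Klf4 lay together at 0.224 and 0.218. Klf7, known from neuronal development, and Klf16 followed at 0.136 and 0.117, with overlapping intervals. The hormone-responsive Klf9 at 0.0493 and Klf13, a regulator of T-cell chemokine expression, at 0.0172 were lowest. Members therefore ranged from above 83.3% of the marked genes (Klf10) to above 2.73% of them (Klf13) in MEF. This order is that of whole bodies. Over the last exon alone in MEF, Klf16 was at 0.570, above Klf2 (0.545) and Klf6 (0.438).

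**Figure D2:**
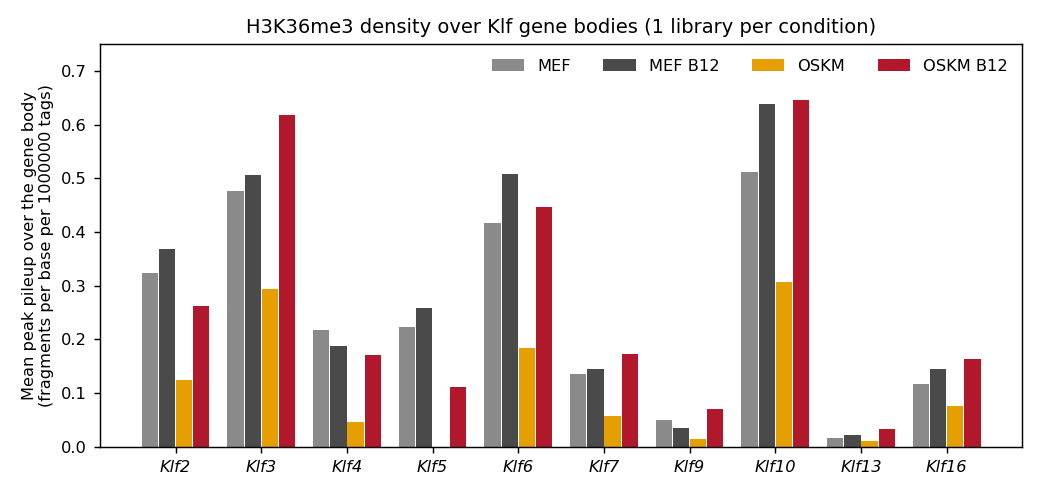
Density of H3K36me3 over each Klf gene body (fragments per base per 1000000 tags, vertical axis), with 1 bar per library. In all 10 genes the OSKM bar is the lowest, from 0 for Klf5 to 0.307 for Klf10. Of all marked genes, 96.8% were lower in OSKM than in MEF.

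Each member had its lowest density and its lowest covered share in OSKM. This was also the common state of marked genes. Of these, 96.8% had a lower density in OSKM than in MEF, and 98.8% had a higher density in OSKM B12 than in OSKM. The members held 39 peaks (MEF), 39 (MEF B12), 30 (OSKM) and 44 (OSKM B12), and the OSKM peaks had a median length of 904 bases against 947 to 1226. The bases in peaks came to 72.7, 72.3, 39.1 and 77.2 kb. Within these peaks the scaled pileup was 0.607, 0.669, 0.531 and 0.684 fragments per base per 1000000 tags. The OSKM list thus held less of the members' length and, within its peaks, a lower level.

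The comparison of OSKM with MEF asks what the cassette did without added vitamin. The share of library tags in peaks over the 10 gene bodies was 151.1 per 1000000 in MEF and 72.2 per 1000000 in OSKM, a ratio of 0.478 (95% counting interval 0.455 to 0.501). All marked genes together gave a ratio of 0.515. The mean covered share of the members went from 39.9% to 20.6%. Klf3 and Klf7, the members with the most bases in peaks, held 60.2% of the members' estimated tags in MEF and 67.5% in OSKM. In a population of cells, fewer cells with the mark and less mark per cell cannot be told apart.

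By the log2 change of density, with 0.05 added to both densities, 8 of 10 members were lower in OSKM by at least 1.5-fold and 0 were higher. Of the 9885 marked genes, 67.3% were lower by that much and 0.526% were higher, with a median log2 change of -0.70, so the members' count was near that of the marked genes. Over the 9 members with a peak in both libraries the median was -0.66. When densities were set relative to the median marked gene, 2 of 10 members were lower (Klf4, and Klf5, for which OSKM lists no peak), beside 19.1% of the marked genes, and the changes of Klf3 and Klf16 turned slightly positive, to 0.0033 and 0.0472.

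**Figure D3:**
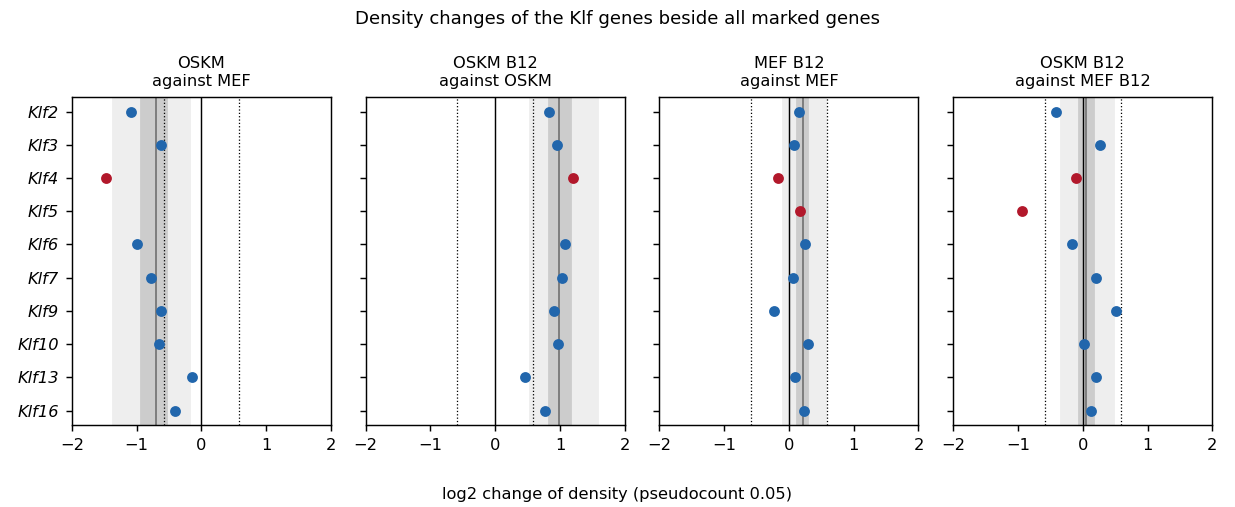
Log2 change of density (horizontal axis, pseudocount 0.05) for each Klf gene in the 4 comparisons, with Klf4 and Klf5 in red. The dark band is the middle 50% and the pale band the middle 90% of the 9885 marked genes, the grey line their median and the dotted lines a 1.5-fold change, and Klf5 has no point where OSKM lists no peak. Outside the pale band lie Klf4 (left) and Klf13 (right) in OSKM against MEF, Klf13 (left) in OSKM B12 against OSKM, Klf4 and Klf9 (left) in MEF B12 against MEF, and Klf2 and Klf5 (left) and Klf9 (right) in OSKM B12 against MEF B12.

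The members differed among themselves. Klf4 had the lowest change of those that could be given, at -1.48, which was 0.78 below the median of the marked genes, and 3.56% of the marked genes had a lower change. Klf2 was at -1.09 and Klf6 at -0.999, also below that median. Klf7 was at -0.78, Klf10 at -0.66, Klf9 at -0.62 and Klf3 at -0.62, all within 0.1 of it. Klf16 at -0.42 and Klf13 at -0.15 lay above it. The pseudocount shrinks the change of genes as low as Klf9 and Klf13. The plain density ratio was 0.611 for Klf13 (95% counting interval 0.447 to 0.836) and 0.294 for Klf9 (0.211 to 0.410), the lowest after Klf4, and with a pseudocount of 0.01 the Klf9 change was -1.28.

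Klf4 is the member whose protein the cassette supplies. Its gene lies on the minus strand at chr4:55527143-55532466 with 5 exons, and no other annotated gene overlaps it. The body was covered at 46.0% (MEF), 42.6% (MEF B12), 10.3% (OSKM) and 31.6% (OSKM B12). Its densities were 0.218, 0.188, 0.0462 and 0.171, resting on about 130, 99.8, 28.5 and 92.4 tags. Over the whole body, OSKM was the low library by a wide margin, and the other 3 lay close together. The ratio of OSKM to MEF was 0.211 (95% counting interval 0.141 to 0.317).

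MEF, MEF B12 and OSKM B12 each had a pair of Klf4 peaks, 1 over exon 3, intron 3 and exon 4 and 1 from intron 4 into exon 5. OSKM had only the upstream peak of the pair, at chr4:55529911-55530459. Of its 549 bases, 461 lay in exon 3 and 88 in intron 3. The last exon, which holds fingers 2 and 3, was covered at 44.0% (MEF), 55.3% (MEF B12), 0% (OSKM) and 37.6% (OSKM B12).

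This remaining OSKM peak crosses the end of exon 3. That boundary matters because a cassette built from coding sequence carries exons without introns, and tags inside an exon cannot be assigned to the cassette or to the gene. The stretch chr4:55529939-55530058 (minus strand, GRCm38.p6) is shown with the exon in capitals and the intron in lower case.
Klf4 exon 3 to intron 3: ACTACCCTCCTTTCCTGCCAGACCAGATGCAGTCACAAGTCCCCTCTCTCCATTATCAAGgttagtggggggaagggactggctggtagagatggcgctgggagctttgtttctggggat

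The local background that the caller set at this peak, derived from pileup and fold enrichment, was 1.94 times the genome-wide level. At the 29 OSKM peaks of the other members it was 1.16 to 1.94 times, so Klf4 lay at the top of that range. Over the Klf4 peaks of the other libraries it was 1.61 to 1.75 (MEF), 1.39 to 1.55 (MEF B12) and 1.66 to 1.82 (OSKM B12), within the range of the other members' peaks there. The part of cassette copies in these levels was not tested. The 358 bases of Klf4 inside peaks in all 4 libraries lay in the upstream peak of each library. These peaks had a mean scaled pileup of 0.425 (MEF), 0.374 (MEF B12), 0.448 (OSKM) and 0.542 (OSKM B12). Each value is the mean over a whole peak, of 1153, 1297, 549 and 1096 bases in the same order. It is not the level at the shared bases. By these means OSKM was not the lowest library, though the shared bases are by construction those that passed the caller in OSKM.

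Klf5 was the only member without a peak in a library. It lies on the plus strand at chr14:99298691-99315036 with 4 exons. Peaks covered 49.9% of its body in MEF (7 peaks), 57.1% in MEF B12 (8 peaks), 0% in OSKM and 26.2% in OSKM B12 (8 peaks). The densities were 0.224, 0.259, 0 and 0.112. The libraries without doxycycline were both above OSKM B12, and OSKM had nothing listed. The nearest OSKM peak was 44.2 kb upstream, over Pibf1. No fold is given against OSKM.

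The MEF peaks over Klf5 were weak, with −log10 q between 1.53 and 4.41. Of the 46198 MEF peaks in that range, 44.5% overlapped an OSKM peak. Of the 4705 genes covered in MEF at least as far as Klf5, 22 (0.468%) had no peak in OSKM. Of all 9885 marked genes, 541 (5.47%) had none. The 4705 genes were matched to Klf5 on covered share and not on the strength of their peaks. These comparisons were chosen after the Klf5 values were seen. Absence of a peak means only that enrichment was not detectable with these tags, and the gene need not lack the mark.

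**Figure D4:**
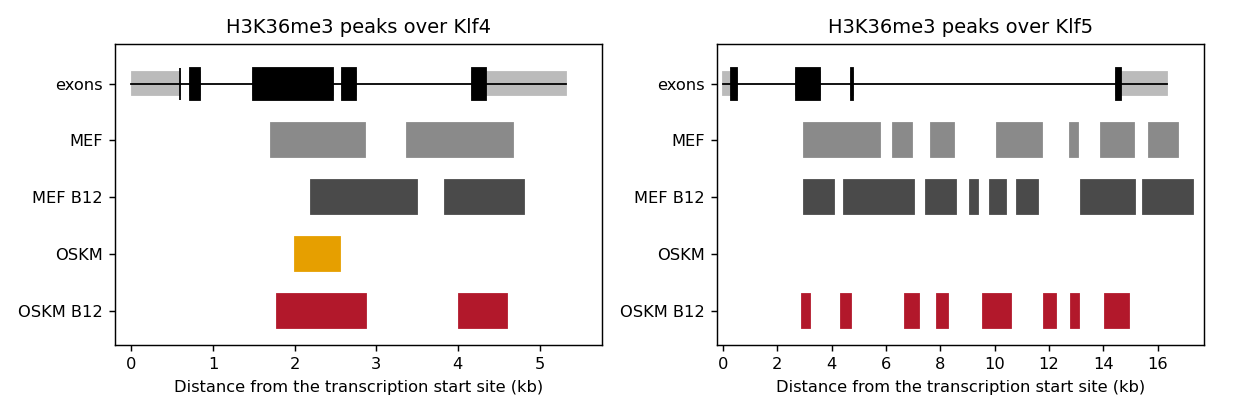
H3K36me3 peaks over Klf4 (left) and Klf5 (right) by distance from the transcription start site in kb (horizontal axis), with 1 row of peaks per library and the exons above (coding parts black, untranslated parts grey). Klf4 keeps 1 of its pair of peaks in OSKM, and Klf5 has 7, 8, 0 and 8 peaks in MEF, MEF B12, OSKM and OSKM B12.

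Klf2, at chr8:72319033-72321656, is the shortest gene of the set, with a body of 2624 bases. Its single peak covered 59.5% (MEF), 60.2% (MEF B12), 28.7% (OSKM) and 57.0% (OSKM B12). This peak ran past the gene's end in every library but OSKM B12, and was 4360 bases long in MEF and 780 in OSKM. In OSKM it began inside the last finger, of which it covered 14.3%, so that it lay mainly over the 3′ untranslated part. Klf2 densities of 0.324, 0.368, 0.125 and 0.263 rested on 38.2 to 96.4 tags.

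In Klf3 (chr5:64803388-64832901) the coverage began further downstream in OSKM. The first covered base of Klf3 lay at 18.2% of the body (MEF), 18.7% (MEF B12), 46.8% (OSKM) and 18.9% (OSKM B12). In Klf6 (chr13:5861482-5870394) it lay at 30.8%, 31.5%, 38.9% and 37.1%, so that both libraries with doxycycline began later there. Over bases in peaks in all 4 libraries, where OSKM was called too, the OSKM-to-MEF ratio of scaled pileup was 0.701 in Klf3 and 0.686 in Klf6. It was 0.746 over all members together. The ratio of 0.478 for the whole bodies is another measure, of estimated tags, which also divides by fragment length. Each base carries the mean pileup of its whole peak here. These ratios therefore compare peaks of unlike length, and not the level at the shared bases.

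**Figure D5:**
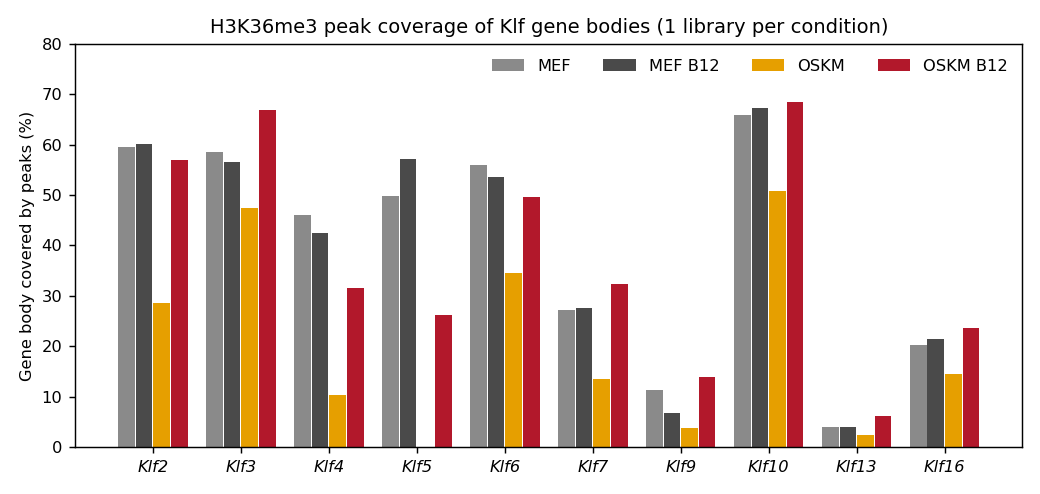
Share of each Klf gene body inside H3K36me3 peaks (%, vertical axis), with 1 bar per library. OSKM is the lowest bar in all 10 genes, and the widest gap between MEF B12 and OSKM B12 is that of Klf5, at 57.1% and 26.2%. The mean covered share of all marked genes was also lowest in OSKM, at 32.1%.

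Klf7 (chr1:64029447-64121491), the longest gene with 92045 bases, carried 15 to 19 peaks per library. It was covered at 27.2% (MEF), 27.5% (MEF B12), 13.4% (OSKM) and 32.4% (OSKM B12). Most of the change lay in its introns, which were covered at 24.3%, 24.6%, 10.5% and 29.8%, while the last exon went from 59.1% in MEF to 42.8% in OSKM. Klf7 was the only member whose peaks also overlapped other annotated genes, the noncoding Gm26649 and Gm13748 and the microRNA gene Mir6899.

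In Klf9, Klf13 and Klf16 most covered bases lay in the last exon in every library. The single intron of Klf9 (chr19:23141226-23168134) was covered at 0% to 6.57%, against 26.7% to 80.8% of its last exon. For Klf13 (chr7:63886351-63938915) the ranges were 0% to 1.38% and 22.3% to 48.1%, and for Klf16 (chr10:80567124-80577321) 0% to 4.08% and 69.9% to 100%. The introns are much longer than the last exons, so in OSKM B12 they held 39.2% of the covered bases of Klf9, 19.5% of those of Klf13 and 12.8% of those of Klf16. In the other libraries their part was at most 8.35%, 14.2% and 3.63%. Klf13 was the only member below 10% of the body in every library, at 2.46% to 6.19%. Its density is a mean over a body that is mostly intron, almost without peaks. Over the last exon alone it was also the lowest member in MEF (0.147) and MEF B12 (0.211). In OSKM and OSKM B12 other members were lower there. The part of the intron in the low density was not tested.

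The comparison of OSKM B12 with OSKM asks what added vitamin did while the cassette was on. The members' share of library tags was 180.8 per 1000000 in OSKM B12 and 72.2 in OSKM, a ratio of 2.51 (95% counting interval 2.39 to 2.63). All marked genes together gave 2.39. By density 9 of 10 members were higher by at least 1.5-fold and 0 were lower, beside 93.5% and 0.223% of the marked genes. The 9 members counted as higher include Klf5, whose OSKM density is listed at 0. The median of the 9 members with a peak in both libraries was 0.96 and that of the marked genes was 0.98, so the count again followed the marked genes. Relative to the median marked gene, 2 of 10 members were higher (Klf4 and Klf5), beside 20.7% of the marked genes.

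With the pseudocount of 0.05, Klf4 had the highest change of the members that could be given, at 1.20, with 78.2% of the marked genes below it, and a density ratio of 3.70 (95% counting interval 2.43 to 5.63). The plain ratio of Klf9 was higher, at 4.85 (3.51 to 6.71). Klf9 also led with a pseudocount of 0.01 (1.71, Klf4 at 1.69), and Klf6 with 0.2 (0.75, Klf4 at 0.59). With 0.05, Klf6 followed at 1.08 and Klf7 at 1.04. Klf10 at 0.97 and Klf3 at 0.96 lay within 0.02 of the median of the marked genes. Klf13 was the lowest on this scale, at 0.45, but with a plain density ratio of 3.13 (95% counting interval 2.35 to 4.17). This comparison shares the OSKM library with OSKM against MEF.

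The comparison of MEF B12 with MEF asks what added vitamin did without the cassette. The members' share of library tags was 166.3 per 1000000 against 151.1, a ratio of 1.10 (95% counting interval 1.06 to 1.14), which fell to 0.981 without division by library tags and to 0.9503 relative to the median marked gene. None of the 10 members was higher or lower by 1.5-fold, beside 4.68% and 0.971% of the marked genes. The median log2 change was 0.13 in the members and 0.21 in the marked genes. Klf10 had the highest change, at 0.29. Klf9 at -0.24 and Klf4 at -0.18 were the members below 0, beside 8.98% of the marked genes. The Klf4 change was 0.10 in the part of the body nearest the end. The mean covered share was 39.9% in MEF and 39.7% in MEF B12, a ratio of 0.996, which was 1.40 with only peaks of −log10 q of at least 5.

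The comparison of OSKM B12 with MEF B12 asks what the cassette did in the presence of the vitamin. The members' share of tags gave a ratio of 1.09 (95% counting interval 1.05 to 1.13), which fell to 0.922 without Klf3 and Klf7. By density 1 of 10 members was lower by at least 1.5-fold and 0 were higher, beside 1.92% and 3.30% of the marked genes. The gene was Klf5, at -0.93, with a density ratio of 0.433 (95% counting interval 0.364 to 0.514), and 0.829% of the marked genes had a lower change. Klf2 followed at -0.42. Klf4 was at -0.11, with a ratio of 0.911 whose counting interval, 0.686 to 1.21, includes 1. In the part of the body nearest the end, however, the Klf4 change was -0.76, lower by more than 1.5-fold.

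With the pseudocount of 0.05, Klf9 had the highest change in this comparison, at 0.51, with a density of 0.0704 in OSKM B12 against 0.0344 in MEF B12 and a plain ratio of 2.05 (95% counting interval 1.60 to 2.63). With a pseudocount of 0.2, Klf3 and Klf9 were level, at 0.21. Klf3 was at 0.26 and Klf7 at 0.20 with 0.05, both with counting intervals of the ratio above 1 (1.14 to 1.31 and 1.11 to 1.29). Klf10 was at 0.02. With the vitamin present, the members thus lay on either side of 0, with 4 below and 6 above. Of the marked genes, 37.8% lay below 0 and 62.0% above, so the members' split was near theirs.

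Most of the other KLF genes and the related Sp genes had no called peak. Of 16 looked up, 11 had none in any library, among them Klf1, Klf8, Klf14, Klf15 and Klf17, and Klf12 was covered at under 1%. Klf11, a SIN3A-binding member closely related to Klf10, was covered at 79.9% (MEF), 80.5% (MEF B12), 71.3% (OSKM) and 80.1% (OSKM B12). Sp1, the founding GC-box factor, was covered at 46.4%, 56.0%, 28.3% and 58.8%, and its relative Sp3 at 51.8%, 64.8%, 23.5% and 52.9%. Sp2 was at 27.3%, 28.5%, 23.1% and 28.9%. The body of Sp3 overlaps another coding gene, Gm11084. Of these 4 marked genes, 2 were lower in OSKM against MEF by 1.5-fold (Sp1 at -0.78 and Sp3 at -1.09) and 4 were higher in OSKM B12 against OSKM, where 67.3% and 93.5% of all marked genes were. None passed 1.5-fold in the other comparisons.

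Of 19 genes for KLF partners and regulators, 18 were marked. In OSKM against MEF 11 of the 18 were lower by 1.5-fold and 0 higher, with a median of -0.71, and in OSKM B12 against OSKM 17 were higher, with a median of 0.89. These counts too were near the 67.3% and 93.5% of all marked genes, whose medians were -0.70 and 0.98. None passed in the other comparisons, where the medians were 0.21 (MEF B12 against MEF) and 0.04 (OSKM B12 against MEF B12). Wwp1, a ubiquitin ligase that targets KLF2 and KLF5, had the lowest change in OSKM against MEF (-1.39), the highest in OSKM B12 against OSKM (1.69) and in MEF B12 against MEF (0.53), and the lowest in OSKM B12 against MEF B12 (-0.24). Its body overlaps the predicted gene Gm12353. Mapk7, the ERK5 kinase that acts upstream of Klf2, had the highest change in OSKM against MEF (0.03) and the lowest in OSKM B12 against OSKM (0.54), and overlaps Mfap4. Ctbp2, the corepressor bound by KLF3, was lowest in MEF B12 against MEF (-0.0047), and overlaps Fgfr2. Smad3, a TGF-β effector, was highest in OSKM B12 against MEF B12 (0.35).

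Among the other cassette factors, Pou5f1 and Sox2 had no peak in any library. Myc was covered at 8.69% (MEF), 26.7% (MEF B12), 15.2% (OSKM) and 23.9% (OSKM B12). Its density changes were 0.24 in OSKM against MEF, 0.67 in OSKM B12 against OSKM, 0.95 in MEF B12 against MEF and -0.04 in OSKM B12 against MEF B12. Of the 4 cassette factors, Klf4 and Myc thus had peaks, and the lowest covered share of Myc was in MEF, not in OSKM.

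The pattern over the 4 libraries was compared among all marked genes by the root mean square difference of log2 densities, each centred on its own mean. The genes nearest to Klf4 were 9430069I07Rik (0.0524), Fndc8 (0.0535) and Zbtb33 (0.0562), the last of which had no OSKM peak. Those nearest to Klf10, the member with the highest density in MEF, were Kctd5 (0.0040), Trim25 (0.0050) and Anpep (0.0061). The closest members to each other were Klf3 and Klf7, at 0.0640.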

How the data were processed

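The data were 8 libraries from MEFs of 1 embryo at 72 h, 1 H3K36me3 and 1 input library for each of MEF, MEF B12, OSKM and OSKM B12, grouped by their labels. The values analysed were 4 deposited lists of broad peaks. Coverage outside peaks was not analysed here.

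Bowtie 0.12.9 was used by the authors for alignment to mm10, keeping uniquely placed tags. They removed duplicates and called broad peaks with MACS2 2.2.6 on each library against its own input, at q cut-offs of 0.05 and 0.1 and with an effective genome size of 3209286105. Pileup in the authors' lists is a signal that gives the average of extended fragments per base of a peak, unscaled. Fold enrichment, as deposited, divides the pileup by the local background after 1 is added to each. Significance in the deposited files is the −log10 of p and of q.

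Pileup was expressed per 1000000 tags. Covered share, density and estimated tags (pileup summed over bases, divided by the fragment length of 288 to 292 bases) were computed per gene body with Python 3.11, numpy 2.4.6 and scipy 1.17.1, and figures drawn with matplotlib 3.10.9. Log2 changes used a pseudocount of 0.05 and a gene was counted from 1.5-fold. Peaks on unplaced scaffolds (16, 15, 1 and 14 in MEF, MEF B12, OSKM and OSKM B12) were left out. Intervals are 95% counting intervals from estimated tags, Poisson for a density and log-normal for a ratio, and leave out variation between cultures and immunoprecipitations. A weaker enrichment than depth allows goes uncalled.

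The members, the gene lists and the rules for naming genes were chosen with earlier results of these data known. All 10 members are named, with other family genes over 10% covered, the partner genes with the highest and lowest change per comparison, the other cassette factors and the 3 genes nearest in pattern to Klf4 and Klf10. The calculation was tested on simulated data, with peaks of 200 of 21853 genes changed by known folds (OSKM against MEF), and returned the known change in 200 of them and a call in the right direction in 193. This checks the arithmetic only, because the known change came from the same formula and no peak was removed, shortened or split. Alternatives changed the peak filter, the scaling, the gene body, the pseudocount, the fold and the members included. Finger coordinates and sequences were read from GRCm38.p6.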

Additional observations from a re-analysis of the deposited data

Results flagged for a closer look

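Density changes of 2 members had opposite signs for the added vitamin without and with doxycycline. Klf4 changed by -0.18 in MEF B12 against MEF and by 1.20 in OSKM B12 against OSKM, and Klf9 by -0.24 and 0.90. With 1 library per condition, the difference between the effects was not tested. For Klf9 both density ratios had counting intervals that left out 1, and for Klf4 that of MEF B12 against MEF included it. These intervals leave out error in the placing of peak edges. Klf9 peaks covered 11.3% of the body in MEF and 6.83% in MEF B12, while the scaled pileup within them was 0.4361 and 0.5035.

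The change with doxycycline had opposite signs without and with the vitamin in 6 members. It was -0.62 in OSKM against MEF and 0.26 in OSKM B12 against MEF B12 for Klf3, -0.78 and 0.20 for Klf7, -0.62 and 0.51 for Klf9, -0.66 and 0.0186 for Klf10, -0.15 and 0.21 for Klf13, and -0.42 and 0.12 for Klf16. These differences were not tested either. In OSKM B12 against MEF B12 the counting interval of the density ratio included 1 for Klf10 (1.01, 0.905 to 1.14) and Klf16 (1.12, 0.898 to 1.40), and the Klf10 change was -0.0054 in the part of the body nearest the end. Relative to the median marked gene, the signs were no longer opposite for Klf3, Klf10 (-0.03 and -0.03) and Klf16, and Klf13 was at -0.0015 and 0.17. The change of the median marked gene itself also had opposite signs, at -0.70 and 0.05, and the pairs of comparisons share no library.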

How the results depend on the processing

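No paired analysis was possible because there is only 1 library per condition, and no library was left out for the same reason. The ratio of the members' summed tags in OSKM against MEF, 0.478, was 0.365 with only peaks of −log10 q of at least 5, 0.778 relative to the median marked gene, 0.503 in the part of the body nearest the end, 0.756 over bases in a peak in all 4 libraries and 0.390 without Klf3 and Klf7 (the last pair of settings was chosen after seeing the data). In OSKM B12 against OSKM, 2.51, these settings gave 4.05, 1.28, 2.38, 1.55 and 2.72, and pileup without division by tags gave 2.22. In the setting of bases in a peak in all 4 libraries, each base carries the mean pileup of its whole peak. The ratios here are of estimated tags, and that of scaled pileup over these bases was 0.746 in OSKM against MEF. In MEF B12 against MEF, 1.10, the ratio went below 1 without division by tags (0.981) and relative to the median marked gene (0.9503), and was 1.34 with the stronger peaks and 1.15 without Klf3 and Klf7. In OSKM B12 against MEF B12, 1.09, it went below 1 without Klf3 and Klf7 (0.922).

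The 8 members lower in OSKM against MEF became 5 with the stronger peaks, 2 relative to the median marked gene, 4 with a pseudocount of 0.2 and 3 at a fold of 2. The 9 members higher in OSKM B12 against OSKM became 6 with the stronger peaks, 2 relative to the median marked gene, 5 with a pseudocount of 0.2 and 4 at a fold of 2. In MEF B12 against MEF, 1 member was higher with the stronger peaks. In OSKM B12 against MEF B12 the 1 lower member became 0 with a pseudocount of 0.2 and at a fold of 2, 2 at a fold below 1.5 and 3 in the part nearest the end, and 1 member became higher with the stronger peaks, in the part nearest the end, with a pseudocount of 0.01 and at a fold below 1.5. The Klf3 change in OSKM against MEF turned from -0.62 to 0.0033 relative to the median marked gene. Of the marked genes, 58.0% (stronger peaks), 19.1% (relative to the median), 21.4% (pseudocount of 0.2) and 19.3% (fold of 2) were lower in OSKM against MEF, and 73.5%, 20.7%, 61.5% and 46.7% were higher in OSKM B12 against OSKM. The cause of these shifts was not tested.

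Of 356 changes of single members under these alternatives, 345 kept their sign, and 24 values have no entry because no peak was left. The ratio of mean covered shares went with the stronger peaks from 0.516 to 0.403 (OSKM against MEF), from 1.83 to 2.77 (OSKM B12 against OSKM), from 0.996 to 1.40 (MEF B12 against MEF) and from 0.947 to 0.797 (OSKM B12 against MEF B12), and moved by less than 10% under the other alternatives run on it. Summed tags and density changes stayed within their counting intervals, and counts within 1.5 times, with peaks of at least 2-fold enrichment, equal numbers of peaks, the whole annotated span, the body without other coding genes, and without Klf4. Over marked genes with at least 4 exons, the background shares were 68.6% lower in OSKM against MEF and 95.2% higher in OSKM B12 against OSKM. Depth limits the calls, and Klf5 in OSKM rests on the absence of called peaks.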
